A study of Mus musculus with 16 samples.

Results

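Short-read RNA-seq counts were examined for 10 genes of iron uptake, storage and export and of hepcidin, the hormone of iron balance. The genes were Tfrc, Tfr2, Trf, Slc11a2, Fth1, Ftl1, Hamp, Hamp2, Slc40a1 and Hmox1, and each was found by its identifier among the 55385 genes of the deposited table. The table covers heart, muscle, spleen, lung, kidney, liver and both white and brown adipose, 8 tissues of male C57BL/6 mice that either ate freely (fed) or had gone without food for 24 h (fasting). Equal amounts of a tissue from 3 mice were combined before the RNA was extracted, which gave a single library for every tissue under either treatment and 16 libraries altogether. There is therefore no replicate library, and every comparison within a tissue sets 1 library against another. The genes were chosen by their function and by the CPM of their fed and fasting libraries, so the fasting comparison of these 10 genes is given as a description, with no p-value, and supports nothing.

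Cells take up iron bound to the plasma protein transferrin, whose receptor is the product of Tfrc, hold it in ferritin, a shell of heavy (Fth1) and light (Ftl1) chains, and release it through ferroportin (Slc40a1). Iron regulatory proteins bind a hairpin in the untranslated regions of several of these mRNAs: in iron-poor cells this binding stabilises the receptor mRNA and blocks translation of ferritin and ferroportin. Hepcidin from hepatocytes (Hamp) removes ferroportin from the cell surface, and Hmox1 frees iron from haem, above all in macrophages that clear old red cells.

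Levels are given in CPM, the counts of a gene per 1000000 counts of its library. A difference is called past the thresholds where the log2 ratio of CPM + 0.01 exceeded 0.5 in size and Fisher's exact test on the counts of the 2 libraries gave p under 0.01. This call weighs counting error only, and so do the 95% exact intervals given for log2 ratios. Library totals lay between 14245178 and 36069968 counts, so that 3 counts, the floor used here, stand for 0.0832 to 0.211 CPM. The marker lists of hepatocytes, skeletal muscle fibres, cardiomyocytes, adipocytes, brown adipocytes, B cells, kidney tubule and lung epithelium each had their highest summed level in the tissue of that name (B cells in the spleen). In such bulk libraries fewer cells of a type and less RNA per cell cannot be told apart.

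The hairpin that iron regulatory proteins bind, the iron-responsive element, was searched for in annotated transcripts because it is what Tfrc, the ferritins and ferroportin share at the sequence level. The pattern was a C, then 5 bases, the loop CAGTGN and 5 bases that pair with the first 5, with G opposite T allowed, on the transcript strand. It occurred in 448 of 55450 genes (0.808%), in 294 of the 21901 genes with protein-coding transcripts (1.34%) and in 4 of the 10 genes. Each match is printed with 6 bases on either side and its loop in capitals, with the transcripts and positions of the GENCODE annotation on GRCm38. Tfrc carried 4 matches, all in its 3′ untranslated region on the plus strand of chr16, at chr16:32631219-32631247, chr16:32631598-32631626, chr16:32631663-32631691 and chr16:32631710-32631738. The matches of Fth1 (chr19:9982732-9982760, plus strand), Ftl1 (chr7:45459779-45459807, minus strand) and Slc40a1 (chr1:45925465-45925493, minus strand) lay in the 5′ untranslated region.
Tfrc, site a: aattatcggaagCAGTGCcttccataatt
Tfrc, site b: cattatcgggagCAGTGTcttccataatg
Tfrc, site c: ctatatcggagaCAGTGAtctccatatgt
Tfrc, site d: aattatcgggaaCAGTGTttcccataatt
Fth1: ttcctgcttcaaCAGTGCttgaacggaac
Ftl1: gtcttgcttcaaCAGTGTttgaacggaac
Slc40a1: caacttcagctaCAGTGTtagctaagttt
The other 6 genes held no match to these letters in any annotated transcript, which says nothing of looser hairpins. Among the 68 further iron and haem genes described at the end, Alas2, the erythroid enzyme that starts haem synthesis, was one that held a match, in the 5′ untranslated region. A match describes the sequence and is no measurement of protein binding in these tissues.

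Over the 8 tissues, 77 of the 80 pairs of gene and tissue had a count in at least 1 library, and 22 of these passed the thresholds, 11 higher and 11 lower in fasting, where 4.99% and 6.15% of all tested pairs of gene and tissue were called in those directions. Among pairs that reached 1 CPM in either library, 9 of 63 were called higher and 11 lower (14.3% and 17.5%), beside 7.93% and 9.94% over all genes. In muscle 3 of the genes were called higher and 1 lower, where 4.42% and 9.39% of all tested genes were called in those directions. In liver none was higher and 3 were lower (4.46% and 9.52% of all genes), and in white adipose 2 were higher and 2 lower (13.2% and 5.84%). In brown adipose 1 was higher and 1 lower (5.39% and 7.58%), and in heart 4 were higher and 2 lower (4.33% and 5.8%). Spleen had no call in either direction (2.31% and 1.62%), kidney had 1 in each (2.77% and 3.93%), and lung had none higher and 1 lower (2.68% and 6.49%). Heart thus held 6 of the 22 calls, and with its libraries left out 7 were higher and 9 lower. With both the heart and the brown adipose libraries left out, 14 calls stood, 6 of them higher.

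**Figure D1:**
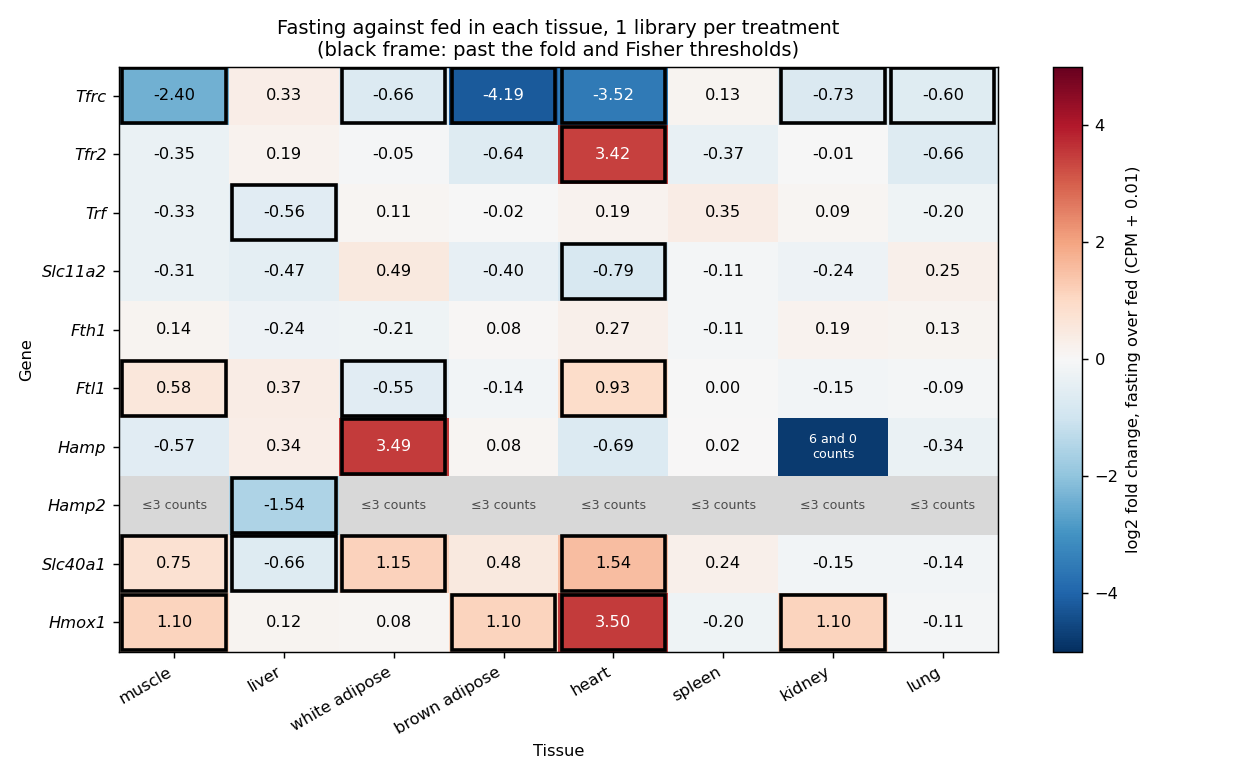
Log2 fold change of fasting over fed (colour and number, on CPM + 0.01) for each of the 10 genes (vertical axis) in each of 8 tissues (horizontal axis), from 1 library per treatment. Black frames mark values past the fold and Fisher thresholds, and grey cells mark pairs with 3 counts or fewer in both libraries. Tfrc is framed as lower in 6 tissues, with its lowest value, -4.19, in brown adipose, and Hmox1 is framed as higher in 4, with its highest value, 3.50, in heart.

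Tfrc, the receptor that carries iron-loaded transferrin into cells (chr16:32608920-32632794), was lower past the thresholds in fasting in 6 of 8 tissues, by 18.2-fold in brown adipose, 11.5-fold in heart and 5.30-fold in muscle. In the fed libraries it stood at 551 CPM in brown adipose, 232 in muscle, 222 in heart, 163 in kidney, 114 in lung, 96.7 in spleen, 54.3 in white adipose and 29.7 in liver. In the fasting libraries the order was spleen at 106 CPM, kidney at 98.1, lung at 74.7, muscle at 43.8, liver at 37.4, white adipose at 34.3, brown adipose at 30.2 and heart at 19.4. Brown adipose, the highest of the fed libraries, was thus last but one among the fasting libraries, and the span from the highest to the lowest tissue narrowed from 18.5-fold to 5.47-fold. Without replicates, neighbours in these orders, such as muscle and heart when fed, cannot be separated.

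The log2 fold change of Tfrc was -4.19 in brown adipose (95% interval -4.33 to -4.05), -3.52 in heart (-3.69 to -3.35) and -2.40 in muscle (-2.49 to -2.32). These were far larger than in kidney (-0.73), white adipose (-0.66) and lung (-0.60), where the fasting level was 0.603 to 0.657 times the fed one. Liver (0.33) and spleen (0.13) were the tissues where the fasting library was higher, neither past the thresholds. Ranked by fold change among the genes that reached 1 CPM in either library, Tfrc was the 10th lowest of 15374 in brown adipose, the 12th lowest of 15135 in heart and the 41st lowest of 13701 in muscle. When the pools were assumed to vary with a coefficient of 0.4, only 4 of the 22 calls were still made, and Tfrc in these 3 tissues made up 3 of them. The share of all genes called on that assumption is not given here, so this count says nothing of these genes in particular.

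Cell type markers also moved in some of these libraries. In brown adipose all 7 skeletal muscle fibre genes were lower in fasting, their sum falling from 2500 to 1142 CPM. The fed muscle library itself had 141682 CPM of these genes beside 232 CPM of Tfrc. The sum of 5 brown adipocyte genes in brown adipose was 5590 CPM fed and 4976 CPM fasting. In heart the sum of 7 cardiomyocyte genes was 54988 CPM fed and 49867 CPM fasting, with Actc1 (10123.9 to 5489 CPM) and Myl7 (14.5 to 0.918 CPM) past the thresholds, and 4 of 7 fibre genes were called higher there. In muscle the fibre genes summed to 141682 and 139350 CPM, while 5 of 6 adipocyte genes were called lower, among them Plin1 (11.5 to 3.33 CPM) and Adipoq (16.1 to 6.79 CPM). In spleen all 10 erythroid genes, the genes of red cell precursors that take up much iron, were higher in fasting, their sum going from 3876 to 9424 CPM, while Tfrc was at 96.7 and 106 CPM. All 10 pancreatic acinar genes were called lower in the same spleen libraries, from a sum of 597 to 11.8 CPM. In white adipose, where Tfrc, Ftl1, Slc40a1 and Hamp were called, 3 of 6 adipocyte genes were called lower in fasting and none was called higher, their sum going from 20234.8 to 16766 CPM. There the 6 B cell genes summed to 348 CPM fed and 84.4 fasting, with Ighm at 338 and 76.3 CPM, and the 7 kidney tubule genes to 69.0 and 749 CPM, with Lrp2 at 34.9 and 709.6 CPM. The 8 hepatocyte genes there summed to 2521 and 3907 CPM, of which Cyp2e1, the gene called higher, made up 2393 and 3784 CPM, while Alb was at 72.0 and 67.9 CPM. In kidney, where Tfrc was called lower and Hmox1 higher, the tubule genes Slc34a1 (5066 to 3266 CPM) and Aqp2 (147 to 80.9 CPM) were called lower of 7, 5 of 8 hepatocyte genes were called lower and 1 higher, and 6 of 11 acute phase genes were called lower and 2 higher. In heart 5 acute phase genes were called higher and none lower, their sum going from 12.8 to 38.5 CPM. In lung all 6 B cell genes and 6 of 7 cardiomyocyte genes were called lower in fasting. The part of these shifts in the values of Tfrc, Ftl1, Slc40a1, Hmox1 and Hamp was not tested.

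Tfr2, a homologue of Tfrc by which hepatocytes sense transferrin, was a liver gene in these data, at 362 CPM fed and 412 fasting (log2 fold change 0.19). In the other 14 libraries it lay between 0.0581 and 2.95 CPM. Its call in heart rested on 1 count fed and 11 counts fasting, a ratio of 12.4 whose 95% interval ran from 0.85 to 9.06 on the log2 scale. In the same libraries all 8 hepatocyte genes were higher in fasting, their sum going from 31.6 to 103 CPM. Whether these shifts belong together was not tested.

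Trf, which encodes transferrin itself, was at 12630.5 CPM in the fed liver and 8571 CPM in the fasting liver, a log2 fold change of -0.56 (-0.57 to -0.55) that passed the thresholds. White adipose was next, at 3199 CPM fed and 3463 fasting. The fed and fasting levels were 407 and 355 CPM in lung, 239 and 306 in spleen, 199.96 and 197 in brown adipose, 44.4 and 35.4 in muscle, 44.0 and 46.8 in kidney, and 42.1 and 48.1 in heart. Outside the liver its log2 fold changes lay between -0.33 and 0.35. Scaling with TMM factors moved the liver value to -0.44, under the fold threshold. Trimmed-mean scaling shifted every gene of the liver by 0.12 and of white adipose by -0.11 on the log2 scale, and the other tissues by less than 0.1.

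Slc11a2, the divalent metal transporter that moves iron out of endosomes and across the gut wall, was highest in kidney, at 145 CPM fed and 123 fasting. The other fed libraries lay between 28.9 CPM in muscle and 48.9 in brown adipose, and the other fasting libraries between 20.1 in heart and 52.5 in lung. Its sole call was in heart, at 34.9 CPM fed and 20.1 fasting (log2 fold change -0.79). White adipose (34.0 and 47.8 CPM, 0.49) and liver (40.7 and 29.4 CPM, -0.47) lay just under the fold threshold on opposite sides. An antisense gene, Gm5475, shares 402 bases with its exons and reached at most 2.09 CPM.

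**Figure D2:**
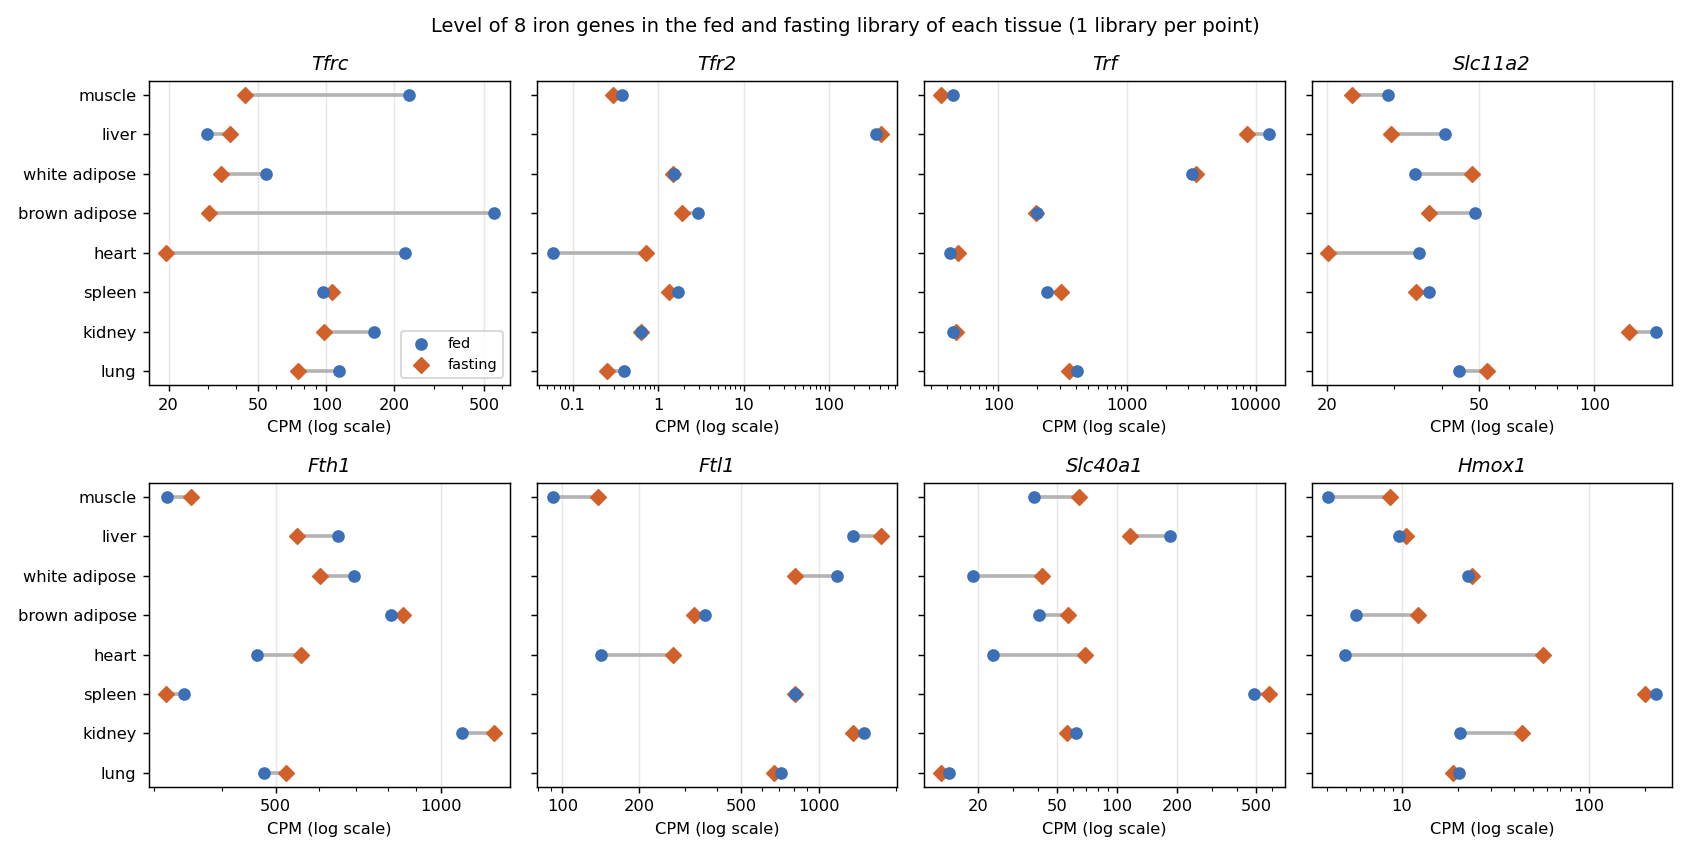
Level of 8 of the genes (CPM, log scale, horizontal axis) in each tissue (vertical axis), with circles for the fed and diamonds for the fasting library. The long bars of Tfrc in muscle, brown adipose and heart run to lower fasting values, while those of Slc40a1 and Hmox1 in heart run to higher ones.

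Fth1, the ferritin heavy chain that oxidises incoming iron, had no call in any tissue and the narrowest range among the 10 genes, with log2 fold changes from -0.24 in liver to 0.27 in heart. Its fed and fasting levels were 317 and 350 CPM in muscle, 649 and 548 in liver, 695 and 603 in white adipose, and 812 and 855 in brown adipose. In the remaining tissues they were 462 and 557 CPM in heart, 340.0 and 315 in spleen, 1095 and 1248 in kidney, and 475 and 522 in lung. Kidney was the highest tissue in both treatments.

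Ftl1, the light chain that helps to mineralise the stored iron, varied more. It was higher past the thresholds in fasting heart (142 to 270.3 CPM, log2 fold change 0.93, 0.86 to 1.003) and muscle (92.0 to 138 CPM, 0.58, 0.51 to 0.66), and lower in white adipose (1178 to 805 CPM, -0.55, -0.57 to -0.52). The fed and fasting levels were 1357 and 1753 CPM in liver (0.37), 1505 and 1358 in kidney, 807 and 806 in spleen, 712 and 668 in lung, and 359 and 326 in brown adipose. Heart and muscle had the lowest Ftl1 levels in both treatments, and they were the tissues where the fasting level was higher past the thresholds. Of the 1527 different stretches of 100 bases, the read length, in Ftl1 transcripts, 44.7% also occur in transcripts of 6 other genes of the table, among them the pseudogenes Ftl1-ps1 and Ftl2-ps. These other genes had at most 3.29 CPM each, and reads that fit several genes could have been left out of the Ftl1 counts.

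Per kilobase of mRNA (the first annotated transcript of each gene, 968 bases for Ftl1 and 929 for Fth1), the ratio of Ftl1 to Fth1 was 2.28 in fed spleen, 2.01 in liver, 1.63 in white adipose, 1.44 in lung and 1.32 in kidney. It was 0.425 in brown adipose, 0.295 in heart and 0.278 in muscle. In fasting the ratio was 3.07 in liver, 2.45 in spleen, 1.28 in white adipose, 1.23 in lung, 1.04 in kidney, 0.466 in heart, 0.378 in muscle and 0.366 in brown adipose. Spleen and liver were the upper pair of tissues in both treatments, and brown adipose, heart and muscle were the lower ones. The size of the ratio rests on the lengths used and on how reads that fit several genes were counted. On the exon lengths of the deposited table (1340 bases for Ftl1 and 3469 for Fth1) it was 0.750 fed and 1.02 fasting in muscle, 0.795 and 1.26 in heart, 1.15 and 0.988 in brown adipose, and between 2.82 and 8.29 in the other tissues. In fasting muscle, fasting heart and fed brown adipose the ratio thus lay on either side of 1 by the lengths used, and in the other 13 libraries it lay on the same side with both. These sides hold for the counts as deposited. Of the stretches of read length in their transcripts, 44.7% for Ftl1 and 0.21% for Fth1 also occur in other genes. If reads that fit several genes were left out, Ftl1 could have lost more counts than Fth1, and the ratios would be too low. The size of such a loss was not tested.

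**Figure D3:**
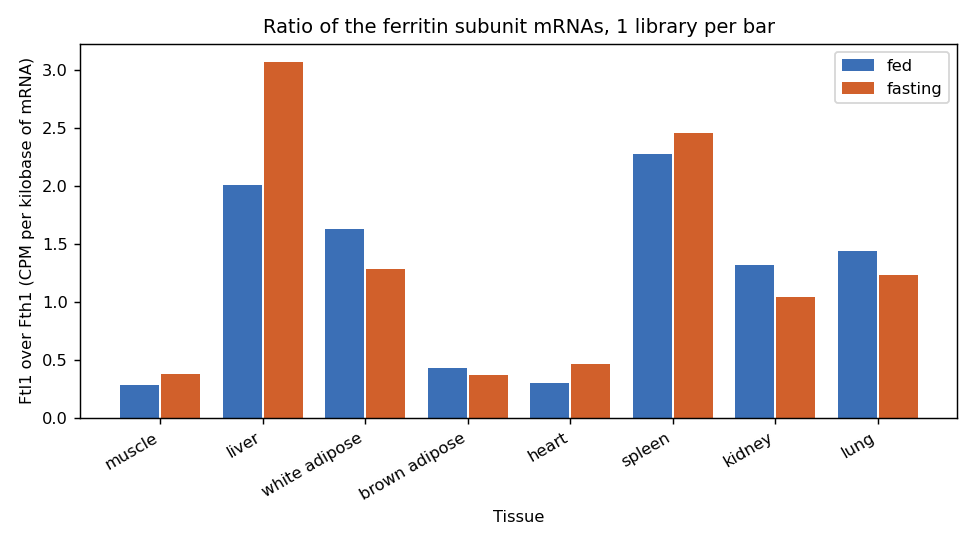
Ratio of Ftl1 to Fth1 (vertical axis, each in CPM per kilobase of mRNA) in the fed and fasting library of 8 tissues (horizontal axis), with 1 library per bar. Liver reaches 3.07 in fasting, and muscle, brown adipose and heart have the lowest bars in both treatments, all at or below 0.466.

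Hamp, the gene of hepcidin (chr7:30942368-30944032, minus strand), was almost wholly a liver gene, at 263 CPM fed (6063 counts) and 334 CPM fasting (8330 counts). Its log2 fold change of 0.34 (0.29 to 0.39) did not pass the fold threshold, nor did it with TMM factors, which gave 0.47. The counts fed and fasting were 60 and 57 in lung, 20 and 25 in spleen, 14 and 12 in muscle, 11 and 10 in brown adipose, 11 and 6 in heart, 6 and 0 in kidney, and 1 and 16 in white adipose. These are at most 1.996 CPM. The call in white adipose, a ratio of 13.6, rested on the single fed count, and its interval ran from 1.08 to 9.15 on the log2 scale.

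Hamp2, the neighbouring hepcidin-like gene that mice carry in addition (chr7:30922372-30924681, minus strand), was low and moved the other way in liver. It had 197 counts, 8.55 CPM, in the fed liver and 73 counts, 2.92 CPM, in the fasting liver, a log2 fold change of -1.54 (-1.96 to -1.15) past the thresholds. In no other library did it exceed 2 counts, and muscle, brown adipose and kidney had 0 in both, which allows up to 0.0970 to 0.211 CPM in these libraries. Per kilobase of mRNA (410 bases for Hamp and 420 for Hamp2), Hamp exceeded Hamp2 by 31.5-fold in the fed and 117-fold in the fasting liver. The mRNAs of both genes are identical at 92.4% of aligned positions, and their longest shared run is 87 bases. No stretch of 100 bases is common to their annotated transcripts, but shorter or trimmed reads could fit both.

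The promoters of both genes are alike too, at 91.1% of aligned positions over the 300 bases from 250 before to 50 after the start, as RefSeq gives them on GRCm38.p6. The stretch that holds the core of the BMP-responsive element (GGCGCC) and the site of the factor STAT3 (TTCTTGGAA), by which iron status and inflammation act on hepcidin, is shown because it is where the genes differ in the former and match in the latter. Capitals mark these motifs. The Hamp stretch lies at chr7:30944102-30944141 and that of Hamp2 at chr7:30924251-30924290, both on the minus strand. The RefSeq starts used here lie 3 bases inside the GENCODE start of Hamp and at that of 2 of the 3 Hamp2 transcripts, while the other one starts 500 bases further upstream, so that the Hamp2 stretch lies within the annotated span of the gene.
Hamp: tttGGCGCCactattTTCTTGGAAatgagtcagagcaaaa
Hamp2: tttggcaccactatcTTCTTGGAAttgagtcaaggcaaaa
Counted from the 5′ end of these 40 bases, Hamp2 differs from Hamp by G7A, T15C, A25T, G33A and A34G, of which G7A falls in the GGCGCC of Hamp. On either strand, GGCGCC occurs in 11.9% and TTCTTGGAA in 0.417% of the 32851 promoters of the same length. Both matches are descriptions of the sequence, and no factor was measured here.

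Markers moved in the liver libraries as well. Of 11 acute phase genes, which share inflammatory signals with hepcidin, 9 were lower past the thresholds and none higher in the fasting liver, their sum going from 10216.5 to 6556 CPM. The 8 hepatocyte genes summed to 111343 CPM fed and 111651 fasting, with 2 called higher and 2 called lower. Of 10 pancreatic acinar genes 8 were called higher, their sum going from 118 to 259 CPM. The part of these shifts in the Hamp and Hamp2 values was not tested.

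**Figure D4:**
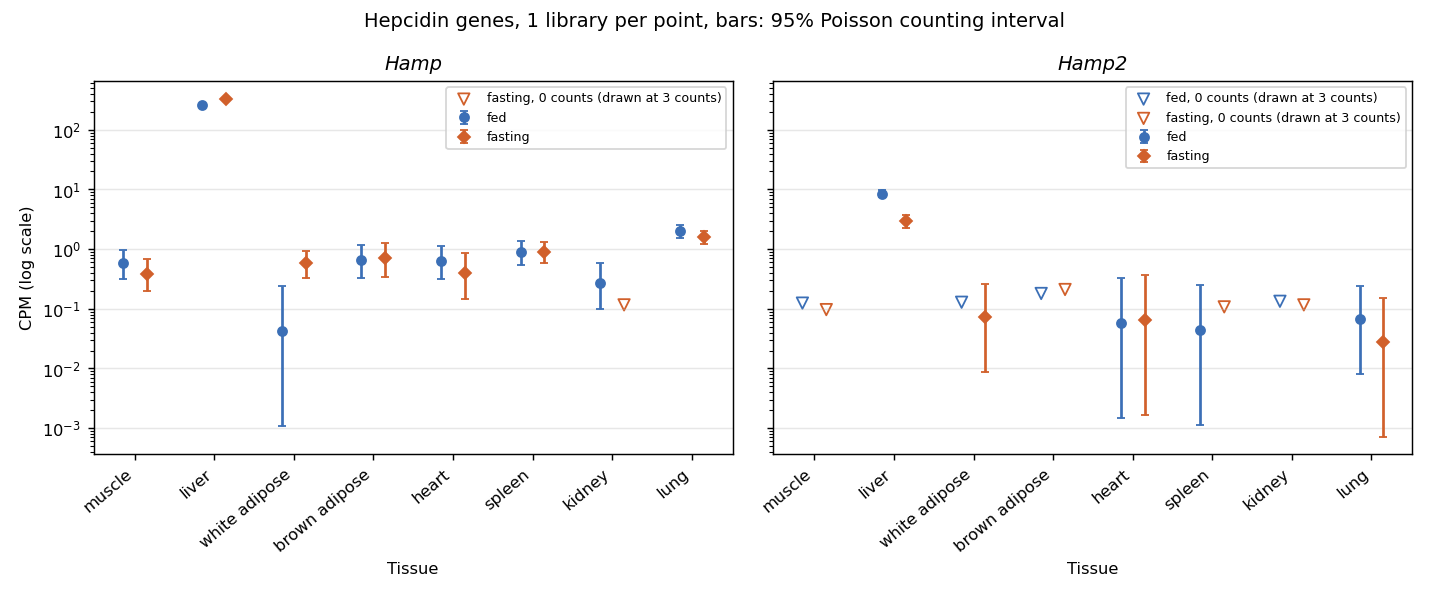
Level of Hamp and Hamp2 (CPM, log scale, vertical axis) in the fed and fasting library of each tissue (horizontal axis), with bars for the 95% Poisson interval of the count and open triangles at the level of 3 counts where the count was 0. Hamp in the liver lies at 263 and 334 CPM, and Hamp2 in the liver falls from 8.55 to 2.92 CPM.

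Slc40a1, the sole known iron exporter of mammalian cells (chr1:45908068-45926523), was higher past the thresholds in fasting heart, white adipose and muscle and lower in liver. The fed and fasting levels were 23.7 and 69.1 CPM in heart (log2 fold change 1.54, 1.38 to 1.71), 18.8 and 41.6 in white adipose (1.15, 0.99 to 1.31) and 38.2 and 64.2 in muscle (0.75, 0.64 to 0.87). Liver went from 183 to 116 CPM (-0.66, -0.73 to -0.59). Spleen was the highest tissue in both treatments, at 489 and 576 CPM, followed by the liver. Brown adipose was at 40.5 and 56.5 CPM (0.48), just under the fold threshold and just over it with TMM factors (0.51). Kidney was at 61.9 and 55.7 CPM and lung, the lowest, at 14.2 and 12.9.

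Macrophages and Kupffer cells, the macrophages of the liver, are rich in this exporter. In the fasting heart the sum of 10 macrophage genes was 311 CPM against 351 fed, with Cd163 higher, Adgre1 lower and the other 8 not past the thresholds. In liver the 5 Kupffer genes summed to 166 CPM fed and 136 fasting, with Marco (3.91 to 5.57 CPM) higher past the thresholds. The others were lower but not past the fold threshold: Clec4f (70.8 to 57.1 CPM), Cd5l (69.8 to 53.4), Timd4 (5.73 to 4.37) and Vsig4 (16.2 to 15.8). In white adipose the macrophage sum was 1108 and 1126 CPM, with Cd163 called higher (83.6 to 175 CPM), and in muscle it was 104 and 106 CPM, with Cd163 called higher (10.8 to 22.5 CPM) and Marco lower (12 counts to 0). A list of 5 red pulp macrophage genes holds Slc40a1 and Hmox1 themselves. Of its other genes, Vcam1 was at 27.1 and 50.3 CPM in white adipose, 21.9 and 27.3 in heart and 4.36 and 3.56 in muscle, and Spic stayed at or below 1.06 CPM in these tissues. The part of these shifts in the Slc40a1 values was not tested.

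Hmox1, the inducible haem oxygenase (chr8:75093621-75100589), was higher past the thresholds in 4 fasting tissues and lower past them in none. Heart stood out, with 86 counts and 4.995 CPM fed against 862 counts and 56.5 CPM fasting, a log2 fold change of 3.50 (3.18 to 3.84), the 12th highest of 15135 genes there. The steps in muscle (4.03 to 8.66 CPM), brown adipose (5.66 to 12.1 CPM) and kidney (20.5 to 44.1 CPM) were each close to a log2 fold change of 1.10. The fed and fasting levels were 228 and 199 CPM in spleen, the highest tissue, 22.5 and 23.8 in white adipose, 20.1 and 18.7 in lung, and 9.64 and 10.5 in liver. The fasting heart thus came next after the spleen, although the fed heart was the lowest tissue but one. Hmox1 in heart was the remaining 1 of the 4 calls still made when the pools were assumed to vary with a coefficient of 0.4. This too is given without the share over all genes, and is a description only.

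The genes whose level over the 16 libraries was most like that of each member were found by Pearson's correlation of log2(CPM + 1) among 11199 genes with a mean of at least 10 CPM. The points share tissues and the same pools of mice, so the coefficients describe these libraries and carry no test. Tfr2 ran with Serpinc1, Ambp and F2 (r from 0.994 to 0.996) and Hamp with Serpind1, Sds and Otc (0.991 to 0.993), genes of hepatocytes. Trf ran with Vnn3, C1s1 and Rarres2 (0.976 to 0.984). Slc40a1 was most like Stab2, Zpr1 and Dnase1l3 (0.814 to 0.85) and Hmox1 most like Zfp622, Btf3 and Npm1 (0.914 to 0.928). Fth1 ran with Ddrgk1, Slc25a16 and Tex264 (0.941 to 0.960), Ftl1 with Os9, Pgghg and Aspscr1 (0.955 to 0.961), and Slc11a2 with Atp6v1a, Vdr and Itfg1 (0.930 to 0.942). The best for Tfrc were lower, Spsb3 at 0.810, Timm22 at 0.726 and Zfp24 at 0.699. Hamp2 had a mean under 1 CPM and was left out.

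A further 68 genes of iron and haem handling, none of them among the 10, were set beside these. Across the 8 tissues they were tested with edgeR's quasi-likelihood test with tissue as a block, on 17296 genes with p-values adjusted over all of them by the Benjamini-Hochberg method. The same mice gave every tissue, so that the test weighs the spread among tissues and not among animals. Of 65 genes that entered the test, 2 were higher and 1 lower in fasting, against 2.31% and 2.08% of all genes, and their median log2 fold change was 0.06 beside -0.01 over all genes. DESeq2, tried as an alternative, called more of the further genes, with the count given in the closing section. The calls across tissues named below are those of edgeR.

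Cd163, the macrophage receptor for haemoglobin bound to haptoglobin, was higher with a log2 fold change of 1.02 ± 0.093 (SE, 8 tissues, edgeR adjusted p = 1.69e-03), in 8 of 8 tissues and past the thresholds in 7. Its fed and fasting levels were 83.6 and 175 CPM in white adipose, 42.4 and 93.3 in spleen, 18.5 and 43.6 in brown adipose, 8.25 and 19.1 in lung, 10.8 and 22.5 in muscle, 0.846 and 1.86 in kidney, 19.4 and 29.8 in heart and 20.9 and 29.1 in liver. Atoh8, a transcription factor that acts on the hepcidin promoter, was higher by 0.60 ± 0.12 (SE, edgeR adjusted p = 0.0286), in 8 of 8 tissues and past the thresholds in 4. It was at 12.7 CPM in the fed and 20.6 CPM in the fasting liver. Its call held in 5 of 13 alternatives and was lost when brown adipose, heart, kidney, liver, lung or muscle was left out, or both adipose tissues, with edgeR adjusted p from 0.0543 to 0.0761, and without the tissue block.

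Steap3, the endosomal reductase that prepares transferrin-delivered iron for export by Slc11a2, was lower by -0.79 ± 0.15 (SE, edgeR adjusted p = 0.0224), in 8 of 8 tissues and past the thresholds in 7. Its fed and fasting levels were 19.1 and 5.55 CPM in brown adipose, 23.8 and 10.9 in muscle, 29.7 and 17.9 in heart, 59.9 and 34.9 in white adipose, 29.3 and 16.2 in liver, 9.98 and 5.51 in kidney, 14.9 and 10.5 in lung, and 4.94 and 4.71 in spleen. Its lowest log2 fold changes were those in brown adipose (-1.78) and muscle (-1.12). In heart, where Tfrc had -3.52, Steap3 had -0.73, and in liver, where Tfrc had 0.33, it had -0.85. Its adjusted p in the edgeR fit was 0.0556 without heart, 0.0613 without muscle and 0.0565 without both adipose tissues, and it passed in 9 of 13 alternatives.

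By function, the iron sensors Aco1, Ireb2 and Fbxl5 had no call across tissues, and neither had the iron chaperones and the ferritin receptor (Pcbp1, Pcbp2 and Ncoa4). Of 12 tested genes of hepcidin control Atoh8 alone passed, while Furin, the protease that processes hepcidin, stood just over the threshold (0.29 ± 0.073, edgeR adjusted p = 0.0508), as did Bmp6, the ligand that reports iron stores to hepatocytes (0.34 ± 0.085, 0.0510). Of 9 reductases and other importers Steap3 alone passed, with Steap4 at -0.70 ± 0.20 (edgeR adjusted p = 0.0722). Of the ferroxidases, ceruloplasmin (Cp) was at 0.35 ± 0.097 (edgeR adjusted p = 0.0661). None of 11 mitochondrial genes, 9 genes of haem synthesis and 4 transcription factors passed, and Cd163 was the sole call of 12 genes of haem scavenging and breakdown. Hjv, the BMP co-receptor of hepcidin control, had its highest levels in muscle (533 CPM fed, 357 fasting) and heart (228 and 133), and its value across tissues was -0.59 ± 0.23 (edgeR adjusted p = 0.151). Alas1, which starts haem synthesis, was at 607 CPM in fed and 207 in fasting brown adipose and at 255 and 80.5 in heart, but at 417 and 808 in liver, which gave -0.12 ± 0.31 across tissues (edgeR adjusted p = 0.852). Haptoglobin (Hp) was at 2542 CPM in fed and 864 in fasting white adipose, and at 1532 and 1763 in liver (across tissues -0.73 ± 0.24, edgeR adjusted p = 0.109). Within tissues, 109 of 532 tested pairs of these genes and tissues were past the thresholds, 62 higher and 47 lower, beside the 4.99% and 6.15% called in those directions over all genes. Of the 500 pairs that reached 1 CPM in either library, 12.2% were called higher and 9.4% lower, beside 7.93% and 9.94% over all genes at that level.

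**Figure D5:**
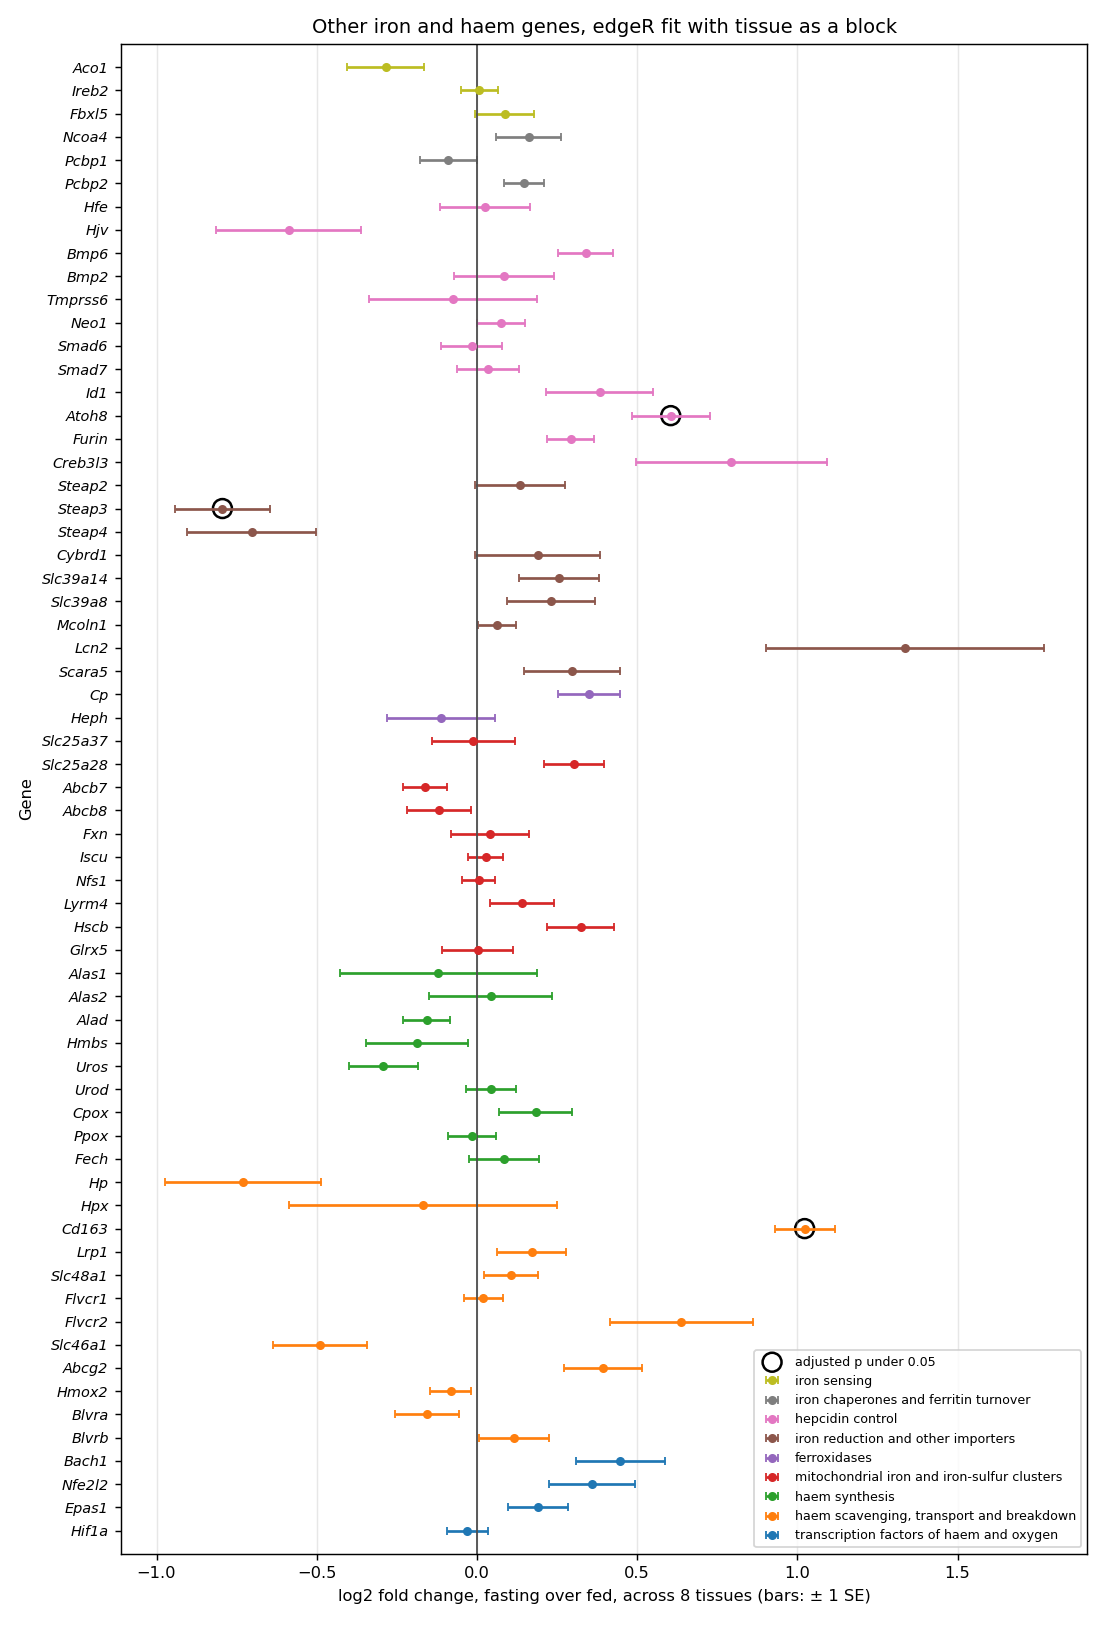
Log2 fold change of fasting over fed across 8 tissues (horizontal axis, points, with bars for ± 1 SE) of the further iron and haem genes (vertical axis), coloured by function, from the edgeR fit with tissue as a block. Black rings mark an adjusted p under 0.05, which Cd163 (1.02) and Atoh8 (0.60) passed to the right of 0 and Steap3 (-0.79) to the left.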

How the data were processed

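Counts per gene of 16 short-read RNA-seq libraries (8 tissues, fed and fasting) were used. Per the labels and the methods of the study, the authors pooled the tissue of 3 mice per group, made strand-specific libraries, sequenced read pairs of 100 bases, trimmed with fastp 0.23.2, checked with FastQC 0.11.8, aligned with HISAT2 2.2.1.0 against GRCm38, and counted with featureCounts (Subread 2.0) on GENCODE mouse release 24. They deposited counts per gene without normalization, with the length of each gene as the other value. The strand setting, and whether reads or read pairs were counted, are not given in the sources used here, so reads of antisense partners may not be told apart. No count column went unused.

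Identifiers without version were matched to symbols of GENCODE release 21 (55144 of 55385), and all 10 genes matched. CPM used library totals. Calls within a tissue used a pseudocount of 0.01 CPM, a log2 fold change above 0.5 and Fisher's exact test (two-sided, unadjusted p under 0.01), and compare libraries, not conditions. Across tissues edgeR 4.0.16 was used with TMM factors, filterByExpr and 7 residual degrees of freedom (adjusted p under 0.05), with DESeq2 1.42.0 as an alternative. The scripts were tested on simulated data. Iron-responsive elements were searched in GENCODE release 21 transcripts, and promoters are those of RefSeq on GRCm38.p6. The members and the lists were chosen with earlier results of these data known. Named were every member, the list genes past the threshold across tissues or called one way in 5 or more tissues, up to 3 per list otherwise by mean CPM, and the 3 genes most like each member. 1 gene that the rule names is counted but not reported or plotted here. Bmp6 was named in addition after its value was seen. Alternative scalings, pseudocounts, thresholds, assumed variation between pools and omission of tissues were tried. The brown adipose and heart libraries were left out after the data were seen.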

Additional observations from a re-analysis of the deposited data

Results flagged for a closer look

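Some iron genes moved past the thresholds in opposite directions in different tissues. With 1 library per tissue and treatment the difference between the tissues was not tested in any of these cases. Among the 10 genes, Ftl1 had a log2 fold change of 0.93 in heart and -0.55 in white adipose, and Slc40a1 had 1.54 in heart and -0.66 in liver. Among the further iron and haem genes, the importer Slc39a8 had 0.98 in white adipose and -0.55 in liver, where it was -0.42 and no longer past the thresholds with TMM factors or DESeq2 size factors. Alas1, the first enzyme of haem synthesis in most tissues, had 0.96 in liver and -1.66 in heart, and Alas2, its erythroid form, had 1.27 in spleen and -1.05 in liver. In the same spleen libraries all 10 erythroid genes, Alas2 among them, were called higher, with a log2 fold change of 1.28 in their sum. In the liver libraries 2 of these 10 genes were called higher and 1, Alas2 itself, lower, their sum going from 283 to 273 CPM. The part of these shifts in the Alas2 values was not tested. Hpx, which encodes the plasma haem carrier hemopexin, had 3.37 in heart and -4.18 in kidney, from 0.174 to 1.90 CPM and from 3.70 to 0.194 CPM. Of 8 hepatocyte genes, 8 were called higher in the same heart libraries, and 5 were called lower and 1 higher in those of kidney. Lrp1, its receptor, had 0.58 in brown adipose and -0.50 in liver, where it was -0.38 and likewise lost its call with both kinds of factor. The other 12 values kept their calls with these factors.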

How the results depend on the processing

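The alternatives reversed no direction among the results past a threshold. The calls of the 10 genes numbered 22 (11 higher, 11 lower). With a log2 fold change above 1 they numbered 12, of which 4 were lower. With an assumed coefficient of variation of 0.2 they numbered 10 (6 higher, 4 lower), and with 0.4 they numbered 4 (1 higher, 3 lower). Without the heart libraries 7 were higher, and without heart and brown adipose 14 stood, 6 of them higher. The calls of the further iron genes within tissues numbered 109 (62 higher, 47 lower), 39 with a log2 fold change above 1 (20 higher, 19 lower), 28 with a variation of 0.2 (12 higher, 16 lower) and 4 with 0.4 (2 higher, 2 lower). Without heart and brown adipose 30 of them were lower. Across tissues, 3 further iron genes passed (2 higher, 1 lower). DESeq2 gave 14 (10 higher, 4 lower), omission of both adipose tissues gave 1 (1 higher, 0 lower), and the fit without the tissue block gave 0 (0 higher, 0 lower). With total counts as library sizes all 3 kept their calls, Cd163 and Atoh8 higher and Steap3 lower, and the lower calls numbered 2. The shares of all genes called under these alternatives are not given here, so these counts say nothing of the iron genes in particular. Leaving out each tissue in turn gave 1 to 3 calls (1 to 2 higher, 0 to 1 lower), with 1 call without heart or without muscle. Cd163 passed in 12 of 13 alternatives, Steap3 in 9 and Atoh8 in 5, with adjusted p from 6.13e-17, 8.13e-05 and 5.34e-04 to 1. The causes of these shifts were not tested, and the fits with tissues left out also had fewer libraries. The fed and fasting library of a tissue were paired in the fit across tissues through the tissue block. Within a tissue, no paired analysis was possible because each group has 1 library and the labels carry no replicate numbers. Depth limits Hamp2, and Hamp and Tfr2 outside the liver. Single counts decide some of these ratios, such as Hamp in white adipose (1 count fed, 16 fasting) and Tfr2 in heart (1 and 11).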
